A study of Mus musculus with 4 samples.

Results

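Mature oligodendrocytes of the mouse thalamus were chosen by a marker gate from single-nucleus RNA-seq (snRNA-seq) libraries of 2 groups. Nuclei with at least 500 genes and less than 5% mitochondrial UMIs (unique molecular identifiers, each counting 1 captured transcript) were kept. A nucleus was a member when Mobp, Prr5l, St18, Mag and Mog together made up at least 20 of 10000 UMIs and exceeded the neuronal genes Myt1l and Celf4. The summed genes of oligodendrocyte precursor cells (OPC: Pdgfra, Vcan, Cspg4), of astrocytes (Slc1a3, Slc6a11, Slc39a12) and of microglia (Ly86, Fyb, Ikzf1) each had to stay under 10. The gate took 9698 of 32241 kept nuclei, from 32332 deposited barcodes. It found 2328 and 3805 nuclei in NS replicates 1 and 2 and 1798 and 1767 nuclei in COL replicates 1 and 2.

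All animals were wild-type (WT) adult C57BL6 mice, 7 to 8 weeks old. COL mice received collagenase IV (Coll IV, 0.01 U in 10 nl), an enzyme that digests the collagen around vessels and causes bleeding, into the thalamus of the right side (VPM and VPL). NS mice received saline. Tissue was taken 7 days later, and each library pooled 3 mice, so the p-values below measure the spread between 2 pools of a group and not between single animals. The comparison asks how oligodendrocytes near a thalamic haemorrhage differ from those of saline-injected thalamus.

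Oligodendrocytes wrap axons in myelin, a lipid-rich membrane held together by proteins such as Mbp, and deliver lactate, iron and lipids to the axon. After injury or demyelination, mature oligodendrocytes are known to switch on complement, serpin, interferon and antigen presentation genes, a set often called disease-associated. Cytokines of the IL-6 family act on glia through the receptor chains Il6ra, Osmr and Il6st and the transcription factor Stat3, and Socs3 is the usual feedback inhibitor. Interferons act through STAT factors and Irf9.

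The marker genes fitted the name. Mbp, which the gate did not use, stood at 3085, 3031, 2899 and 3308 CPM (a gene's UMIs relative to all UMIs summed, on the usual CPM scale) in the members of NS 1, NS 2, COL 1 and COL 2, against 85.0 to 145 CPM in gated neurons. The members' gate sum had medians of 89.1, 89.9, 100.3 and 101.0 per 10000 UMIs. Between 33 and 77 members per library lay at 20 to 25, and 23 to 86 nuclei per library at 15 to 20 were left out by this threshold. Members held 10258888, 14277964, 12109919 and 13540036 UMIs in all. COL members were deeper, with a median of 5374 and 6118 UMIs against 3345.5 and 3031 in NS. COL replicate 1 stood apart in several respects. Its mitochondrial median was 0.0956%, against 0.172% to 0.289% in the other 3 libraries, and its ribosomal protein genes, Fth1 and Apoe were the lowest of the 4, as given with those genes. In all, 9 member barcodes were found in more than 1 library.

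The share of mature oligodendrocytes among kept nuclei did not separate the groups. They made up 24.1% (exact Clopper-Pearson 95% interval 23.2 to 25.0%) and 36.6% (35.7 to 37.6%) of NS nuclei and 30.3% (29.2 to 31.5%) and 28.2% (27.1 to 29.3%) of COL nuclei. The means were 30.4% ± 8.87 and 29.3% ± 1.5 (SD, n = 2), with p = 1 in a two-sided exact permutation test, whose smallest possible p is 0.333. The intervals cover counting error only, and fewer nuclei of a type cannot be told apart from fewer nuclei recovered.

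UMIs were summed over the members of each library and compared with edgeR's quasi-likelihood test. Of 18650 genes tested outside the gate, 1309 were higher in COL (7.02%) and 1981 were lower (10.6%) at a Benjamini-Hochberg adjusted p under 0.05, and 314 and 294 of these changed at least 4-fold. Both COL libraries lay above both NS libraries for 33.5% of genes and below them for 34.4%. Leaving out COL replicate 2 raised the counts to 2332 and 3614. Leaving out NS replicate 1 or 2 lowered the higher count to 812 or 780, and leaving out COL replicate 1 lowered the lower count to 1319. Of the genes higher in COL, 873 were at a lower level in oligodendrocytes than in all other COL nuclei together, so the 12 largest rises and falls were taken from genes whose level in the higher group was at least that in all other nuclei. Members of gene lists had no such condition.

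Among the 24 tested genes of the disease-associated list, 15 rose and 1, Fxyd7, fell (median log2 fold change 1.65, against 0.01 over all genes). Over all genes 7.02% rose and 10.6% fell. The gene lists were chosen with earlier results of these data known. C4b, complement component 4 (chromosome 17, 34728380 to 34743882, minus strand, GRCm38), had 0.99, 2.13, 112 and 151 TMM-scaled CPM in NS 1, NS 2, COL 1 and COL 2. Both COL libraries were far above both NS libraries. Its log2 fold change was 6.35 ± 0.32 (SE), with an adjusted p of 0.000106, and the UMIs behind it numbered 11, 30, 1261 and 2045. Serpina3n, a secreted serine protease inhibitor of the acute phase, rose from 3.61 and 2.13 to 73.2 and 116 CPM (log2 5.06 ± 0.32, adjusted p = 0.000429). C4b has a close copy, C4a, and Serpina3n belongs to a cluster of related genes, so reads shared with them could be split by the counting.

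**Figure D1:**
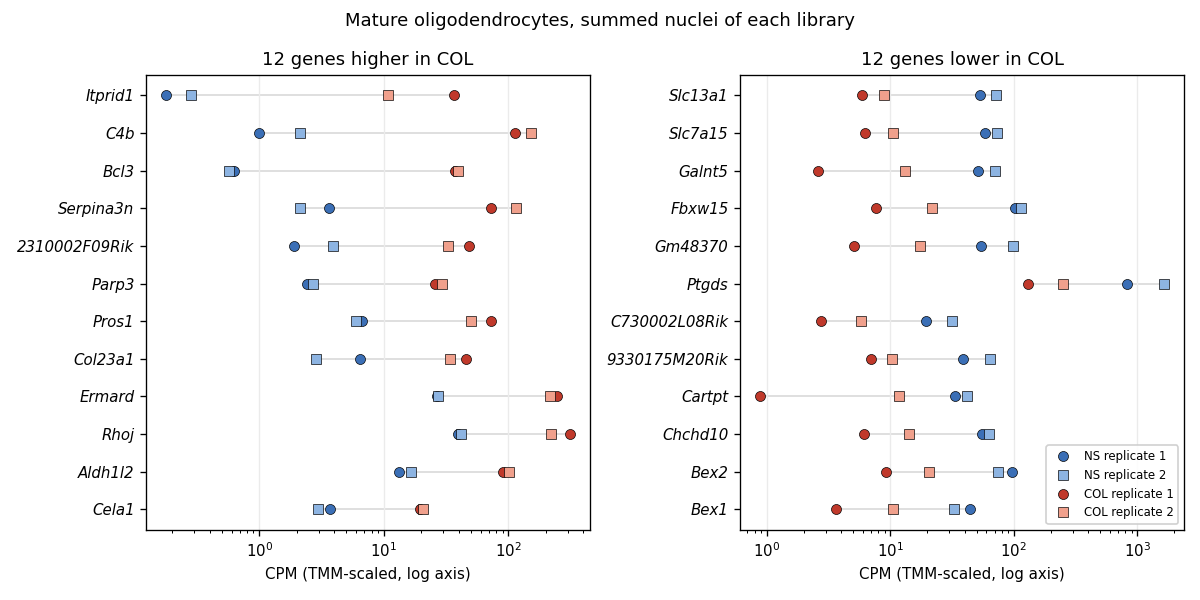
TMM-scaled CPM (log axis) of the summed mature oligodendrocytes of each library for the 12 genes with the largest rise and the 12 with the largest fall under the naming rule. Every point is 1 library, circles are replicate 1 and squares replicate 2. In all 24 genes the blue NS points and the red COL points do not overlap, as the rule requires. Cartpt and Galnt5 have the widest spread within COL.

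In the list of cytokine receptors and STAT3 signalling, 10 of 21 genes rose and none fell (median 0.73), against 7.02% and 10.6% of all genes. Bcl3, a nuclear partner of NF-kB, had 0.63, 0.57, 37.6 and 39.5 CPM (log2 5.99 ± 0.26, adjusted p = 6.28e-05), and the 2 replicates of each group nearly coincided. Socs3 rose from 0.09 and 0.14 to 8.10 and 8.78 CPM (log2 6.03 ± 0.48). Osmr, the oncostatin M receptor, had 0 and 2 UMIs in NS against 34 and 24 in COL, and Il6ra rose by 2.56 ± 0.37 on the log2 scale. In COL astrocytes Osmr was at 5.71 and 18.9 unscaled CPM and Il6ra at 12.8 and 13.7. COL oligodendrocytes had 2.81 and 1.77 of Osmr and 7.51 and 8.57 of Il6ra. Socs3 went the other way, with 4.28 and 5.26 in COL astrocytes against 7.51 and 8.79. The interaction test described below called no difference from astrocytes for Osmr, Il6ra or Socs3 (adjusted p = 0.974, 0.994 and 0.332). Stat3 itself, named here for its role after its values were seen, had 51.8, 52.2, 181 and 144 CPM (log2 1.64 ± 0.17, adjusted p = 0.00226). Bcl6, a repressor induced by STAT signals and also chosen afterwards, had 11.7, 11.7, 33.8 and 29.9 CPM. Cd44, a hyaluronan receptor, rose from 2.43 and 3.27 to 28.9 and 25.7 CPM.

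The promoter sequences of list members are shown because STAT factors bind palindromes of the form TTCNNNGAA. RefSeq promoters (GRCm38.p6, 250 bases before the transcription start) of 20 of the 21 listed genes were searched on both strands. The motif was found in 6 of 23 promoters (26.1%), belonging to 5 genes, against 7.02% of all 32851 promoters. Matches are in capitals, with 24 bases of flank where the window allows, on the strand of the gene. The Socs3 stretch lies at chr11:117969488-117969544, the Bcl6 stretch, from its downstream start, at chr16:23981339-23981475, and the Tnfrsf1a stretch at chr6:125349473-125349511. Pros1, which is in none of the signalling lists, was the only gene of 9 with a promoter among the 12 largest rises that held the motif, at chr16:62854191-62854247.
Socs3: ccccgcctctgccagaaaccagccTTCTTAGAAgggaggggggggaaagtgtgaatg
Bcl6: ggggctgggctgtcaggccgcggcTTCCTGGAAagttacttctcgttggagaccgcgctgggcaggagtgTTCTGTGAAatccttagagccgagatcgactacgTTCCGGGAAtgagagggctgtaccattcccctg
Tnfrsf1a: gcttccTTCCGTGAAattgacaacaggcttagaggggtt
Pros1: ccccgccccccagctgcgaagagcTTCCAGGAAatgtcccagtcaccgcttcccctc
A match describes letters only and shows no binding. The search took listed genes whether or not they rose, so the 26.1% describes the list and not the change in COL.

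The other leading genes were of mixed function. Pros1, protein S, a ligand of the TAM receptors that is also an anticoagulant, rose from 6.67 and 5.96 to 72.9 and 50.2 CPM (log2 3.28 ± 0.23, adjusted p = 0.000595). Ermard, a membrane protein of the endoplasmic reticulum, rose from 26.7 and 27.3 to 244 and 217 CPM (3.09 ± 0.17, adjusted p = 0.00013). Rhoj, a small GTPase, rose from 39.5 and 41.4 to 310 and 220 CPM (2.71 ± 0.20). Ermard and Rhoj were the most abundant of the 12. Aldh1l2, a mitochondrial folate enzyme, had 13.2, 16.4, 90.3 and 101 CPM. Parp3, a DNA repair enzyme, had 2.43, 2.70, 25.8 and 29.1 CPM. Col23a1, a transmembrane collagen, had 6.49, 2.84, 46.1 and 34.0 CPM, and Cela1, an elastase, had 3.70, 2.98, 19.4 and 20.7 CPM.

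Itprid1 had the largest fitted rise of the 12 and also the widest spread, with 0.18, 0.28, 36.5 and 10.8 CPM (log2 6.57 ± 0.75). Its 410 UMIs in COL replicate 1 came from 2.73% of the members, and its 146 UMIs in COL replicate 2 from 1.81%. The processed transcript 2310002F09Rik rose from 1.89 and 3.90 to 48.7 and 32.9 CPM. It runs against the kallikrein genes Klk8 to Klk14, and Klk8 rose with it, from 0.36 and 0.85 to 8.19 and 10.8 CPM (log2 3.90 ± 0.42). Ermard and Parp3 also overlap genes of the other strand, Tcte3 and Rrp9. Whether the counting used the strand is not given in the sources used here, so reads of such pairs cannot be told apart.

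Interferon-response genes formed a second rising group. Of 18 tested, 12 rose and none fell (median 1.90), against 7.02% and 10.6% of all genes. The listed genes summed to 101, 106, 171 and 199 unscaled CPM in oligodendrocytes (NS 1, NS 2, COL 1 and COL 2). The sums were 89.4, 90.7, 181 and 250 in all other nuclei and 595, 612, 1118 and 1186 in gated microglia. In both COL libraries Bst2, Parp14, Oasl2 and Ifit1 were at higher unscaled CPM in gated astrocytes than in oligodendrocytes. Bst2, which tethers budding virus, had 0.36, 0.50, 3.20 and 5.53 CPM (log2 3.31 ± 0.50), Parp14 rose by 3.29 ± 0.49, Oasl2 by 2.73 ± 0.40 and Ifit1 by 2.70 ± 0.56. Ifit1 rested on 2, 7, 22 and 37 UMIs. Interferon-response promoters often hold the ISRE, searched as GAAA, any 2 bases and GAAA again on both strands. It was found in 9 of 24 listed promoters (37.5%), from 9 of 19 genes, against 2.98% of all promoters. Listed genes were searched whether or not they rose, so the share describes the list and not the change in COL. The Bst2 stretch lies at chr8:71537563-71537626, the Ifit1 stretch at chr19:34640761-34640837, the Trim30a stretch at chr7:104465196-104465253 and that of B2m, of the antigen presentation list, at chr2:122147524-122147581. Where the match is on the other strand, the capitals read as its reverse complement, TTTC, 2 bases and TTTC, and the capitals of Bst2 hold 2 overlapping matches.
Bst2: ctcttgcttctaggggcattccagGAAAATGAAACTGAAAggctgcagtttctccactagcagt
Ifit1: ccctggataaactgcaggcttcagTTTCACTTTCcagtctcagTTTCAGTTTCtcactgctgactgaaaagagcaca
Trim30a: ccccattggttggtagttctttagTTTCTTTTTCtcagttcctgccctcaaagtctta
B2m: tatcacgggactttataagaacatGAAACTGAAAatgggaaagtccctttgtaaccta
Trim30a, an interferon-induced member of the TRIM family, rose by 2.47 ± 0.39 and B2m, the light chain of MHC class I, by 1.79 ± 0.28.

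In the antigen presentation list 10 of 16 genes rose and none fell (median 1.99), against 7.02% and 10.6% of all genes. Nlrc5, the transactivator of MHC class I genes, had 0.81, 0.85, 16.8 and 16 CPM (log2 4.28 ± 0.29, adjusted p = 0.000453). H2-K1, an MHC class I heavy chain named after its values were seen, had 7.39, 7.88, 16.3 and 20.9 CPM. MHC class II genes, which professional antigen-presenting cells use, were less even between COL libraries. H2-Aa had 0.09, 0.78, 6.32 and 16.7 CPM (log2 4.60 ± 0.69), and H2-Eb1 and H2-Ab1 rose by 4.38 ± 0.65 and 4.20 ± 0.71.

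Markers of macrophages moved with these genes. Of 11 macrophage markers tested in the oligodendrocyte sums, 10 rose, against 7.02% of all genes. Their summed level was 7.02 and 14.4 CPM in NS against 96.1 and 223 in COL. In gated neurons it was 9.85, 16.5, 50.7 and 128 CPM, and in gated microglia 48.8, 121, 2027 and 2687 CPM (values of NS 1, NS 2, COL 1 and COL 2). Lyz2 rose from 0.18 and 0.28 to 19.9 and 58.0 CPM in oligodendrocytes. Ms4a7, at 0 UMIs in both NS libraries, had 17 and 55 UMIs in COL, and Mrc1 had 0.18, 0.92, 1.07 and 2.14 CPM and was not called. COL replicate 2 exceeded COL replicate 1 in Lyz2, Ms4a7 and the class II genes alike. Of 12 microglia markers in the oligodendrocyte sums 3 rose, and of 5 markers of T and NK cells 2 rose, against 7.02% of all genes. None of these fell, and none of 9 markers of endothelium and pericytes was called. Cd74, the class II invariant chain, was at 0.78, 3.57, 17.9 and 57.1 unscaled CPM in oligodendrocytes and at 0.45, 1.51, 7.59 and 31.5 in neurons. C4b was at 104 and 151 CPM in COL oligodendrocytes against 5.54 and 12.6 in neurons and 15.9 and 25.4 in microglia, and Bcl3 at 34.8 and 39.5 against 1.71 and 3.08 in neurons and 29.8 and 28.2 in microglia. Other glia were closer in C4b, with 74.2 and 65.3 CPM in COL OPC and 69.9 and 101 in COL astrocytes. Bcl3 was at 25.3 and 32.7 CPM in COL OPC and 15.7 and 11.6 in COL astrocytes. The part of RNA from macrophages or other cells in the rise of each gene was not tested.

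**Figure D2:**
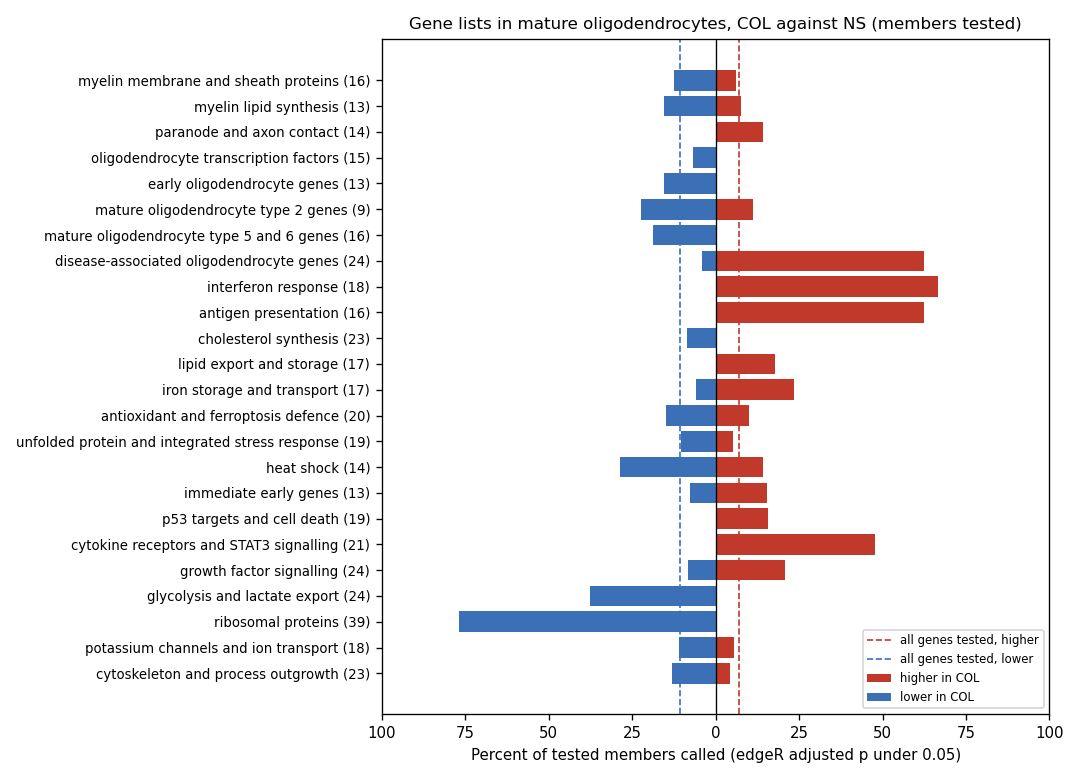
Percent of the tested members of 24 gene lists that were called higher (red, right) or lower (blue, left) in COL oligodendrocytes, with the number tested in brackets and dashed lines at the shares over all 18650 genes, 7.02% and 10.6%. The interferon, disease-associated, antigen presentation and cytokine lists reach furthest right, and ribosomal proteins furthest left, with 30 of 39 lower.

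Of 16 myelin membrane and sheath genes tested outside the gate, 1 rose and 2 fell, near the shares over all genes, and over the alternatives 1 to 8 fell and at most 1 rose. Mbp, which compacts the myelin membrane, had 2853, 3073, 3125 and 3303 CPM and was not called (adjusted p = 0.749). The 3 calls were moderate. Cldn11, the claudin of the myelin tight junction, had 275, 300.1, 458 and 570.5 CPM (log2 0.84 ± 0.18, adjusted p = 0.0194). Opalin, a membrane protein of mature oligodendrocytes, fell from 322 and 295 to 177 and 160 CPM (log2 -0.87 ± 0.16, adjusted p = 0.013), and Ermn, an actin-binding myelin protein, from 241 and 315 to 121 and 189 CPM (-0.84 ± 0.24). Among gate genes, which are described without a test, Mobp had 664, 738, 1544 and 1192 CPM, and Mag had 1068, 1223, 803 and 1128 CPM. Without NS replicate 1 or NS replicate 2 Cldn11 lost its call (log2 0.78 and 0.90, adjusted p = 0.119 and 0.0674), and without NS replicate 2 or COL replicate 1 so did Ermn (-0.63 and -0.56, adjusted p = 0.134 and 0.0612). Over the 12 alternatives, the adjusted p ranged from 8.51e-06 to 0.119 for Cldn11 and from 1.54e-05 to 0.134 for Ermn.

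Of 13 myelin lipid genes 3 were called, against 17.6% of all genes in either direction. Aspa, which frees acetate for lipid synthesis, fell from 689 and 888 to 464 and 502 CPM (log2 -0.71 ± 0.20), Acsl3 fell by 0.65 and Sgms1 rose by 0.55 on the log2 scale. Of 14 genes of the paranode and axon contact, 2 were called. Nfasc, neurofascin, counted over all its forms, had 768, 696, 1400 and 1210.1 CPM (log2 0.83 ± 0.20). Jam3, an adhesion molecule, had 174, 197, 345 and 272 CPM (0.73 ± 0.18). None of the 14 fell, and the median of the list was 0.38. Over the alternatives 0 to 7 of the 14 rose, and 0 to 5 of the lipid genes fell. Neuronal markers in the same sums moved with the contact genes. Of 15, 3 rose and 1 fell (median 0.42), and they summed to 11370 and 9588 CPM in NS and 16769 and 13091 in COL, and their part in the result was not tested. Each of the 5 calls of lipid and contact genes was lost without NS replicate 1 (log2 -0.87, -0.66, 0.46, 0.91 and 0.65 in the order given) and without NS replicate 2 (-0.51, -0.63, 0.65, 0.76 and 0.83), and that of Sgms1 also without COL replicate 1 (0.48, adjusted p = 0.064). The adjusted p reached 0.381 for Aspa, 0.114 for Acsl3, 0.341 for Sgms1, 0.272 for Nfasc and 0.167 for Jam3, from lowest values of 0.000221, 0.00183, 0.0115, 5.7e-06 and 0.000209 over the alternatives, with the direction kept in all of them.

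Of 15 oligodendrocyte transcription factors outside the gate, Sox8 was the 1 called, and it fell from 83.0 and 95.3 to 41.6 and 56.9 CPM (log2 -0.86 ± 0.19, adjusted p = 0.02). Over all genes 10.6% fell, and over the alternatives 1 to 6 of the 15 fell and 0 to 3 rose. Of 13 early genes, which are expressed as precursors differentiate, Nkx2-9, a homeobox gene, and Lims2, an adhesion adaptor, fell by 1.47 and 0.63 and none rose, against 10.6% of all genes lower and 7.02% higher. Over the alternatives 0 to 3 of the 13 fell and 0 to 2 rose. Both calls were lost without NS replicate 2 (log2 -0.97 and -0.74, adjusted p = 0.338 and 0.088) and COL replicate 1 (-1.14 and -0.60, 0.133 and 0.0792), and Lims2 without NS replicate 1 (-0.52, 0.281), from lowest adjusted p of 0.00142 and 0.0083. Nkx2-9 was also lost with DESeq2 (0.0718), other size factors (0.0547) and equal numbers of nuclei (0.0618). Genes of known mature subtypes gave no single direction. Among 9 genes of type 2, Klk8 rose as given above, and Syt4 and Fgfr2 fell by 0.77 and 0.67. Among 16 genes of types 5 and 6, Ptgds, Cryab and Jph4 fell. Over all genes 7.02% rose and 10.6% fell. Over the alternatives 1 to 2 of the 9 rose and 0 to 3 fell, and 0 to 3 of the 16 rose and 2 to 6 fell. Jph4, a junctophilin, had 103, 97.6, 50.0 and 46.2 CPM, and Cryab, a small heat shock protein, fell by 1.11 ± 0.26. Klk6, a protease of type 2 cells, had 26.1, 65.5, 57.5 and 106 CPM, Apod, an apolipoprotein of types 5 and 6, 337, 533, 646 and 738 CPM, and Il33, an alarmin stored in oligodendrocyte nuclei, 237, 241, 362 and 271 CPM, none of them called in the test of all 4 libraries. Apod was called higher in 5 alternatives, among them without NS replicate 2 (log2 1.04, adjusted p = 0.0447) and COL replicate 1 (0.76, 0.0359). Klk6 was called in 4, among them without the same libraries (1.65 and 1.2, adjusted p = 1.69e-06 and 0.0386), and Il33 without COL replicate 2 (0.55, 0.0137). Without NS replicate 1 the adjusted p of Syt4 was 0.121 (log2 -0.61) and that of Fgfr2 0.167 (-0.73), and without NS replicate 2 that of Fgfr2 was 0.296 (-0.61) and that of Cryab 0.0511 (-0.72). The lowest values over the alternatives were 0.00035, 0.00046 and 9.92e-09 for Syt4, Fgfr2 and Cryab.

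**Figure D3:**
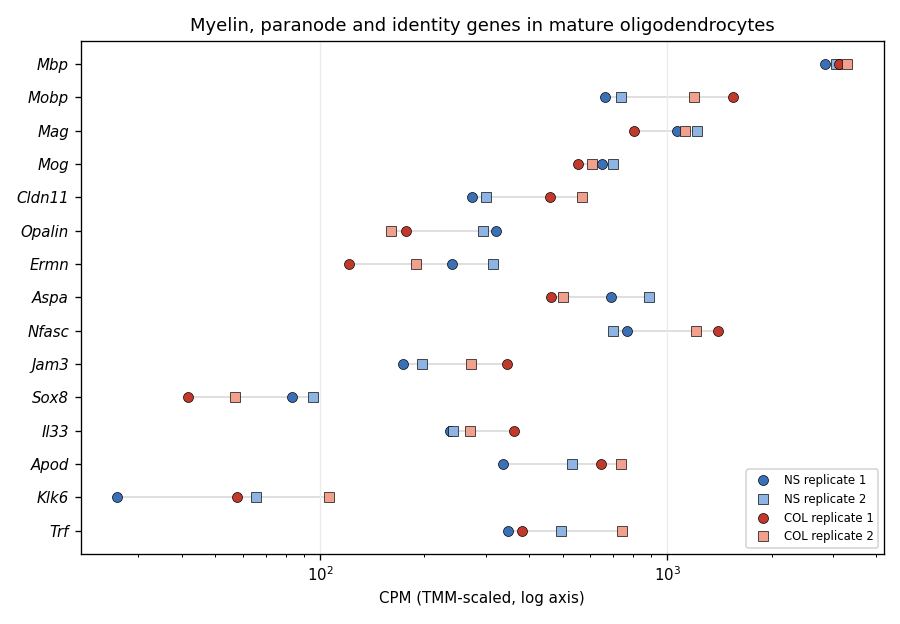
TMM-scaled CPM (log axis) of 15 myelin, paranode, transcription factor and subtype genes in the summed members of each library, 1 point per library. The NS and COL points of Mag, Klk6 and Trf overlap, those of Mbp lie close together, Mobp, Cldn11, Nfasc and Jam3 are higher in both COL libraries, and Opalin, Ermn, Aspa and Sox8 are lower in both.

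The genes that fell furthest came in 2 kinds, by where else they were expressed. A first kind was, in NS, higher in oligodendrocytes than in the other 4 gated cell types. Slc13a1, a sodium-sulfate cotransporter, had 52.8, 72.5, 5.96 and 8.85 CPM in oligodendrocytes (log2 -3.07 ± 0.25, adjusted p = 0.000788) and at most 2.09 unscaled CPM in any library of the other 4 types. Fbxw15, an F-box protein, had 103, 114, 7.66 and 21.7 CPM (-2.87 ± 0.38), against at most 3.91 elsewhere, and Galnt5, which starts mucin-type O-glycans, 51.3, 70.8, 2.58 and 13.3 CPM (-2.92 ± 0.53), against at most 3.48 elsewhere. Slc7a15, a predicted amino acid transporter, fell from 58.2 and 73.1 to 6.23 and 10.5 CPM (-2.96 ± 0.26), with 3.68 to 15.7 CPM in microglia. That the NS and COL libraries of these 4 genes did not overlap was a condition of the naming rule. COL replicate 1 was the lowest in each. Galnt5 overlaps Ermn on the other strand. The noncoding transcript Gm48370, at most 2.00 CPM elsewhere, fell by 2.75 on the log2 scale. Of 2 others that were not so restricted, C730002L08Rik fell by 2.57, with 33.2, 141, 11.4 and 28.4 CPM in astrocytes, and 9330175M20Rik by 2.57, with 18.8, 22.9, 7.29 and 10.6 CPM in neurons.

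The second kind was also expressed, and mostly lower in COL, in the other gated types. Ptgds, prostaglandin D synthase, is among the most abundant secreted proteins of these cells and of the meninges. It had 818, 1634, 129 and 249 TMM-scaled CPM in oligodendrocytes (log2 -2.69 ± 0.39, adjusted p = 0.00806). On the unscaled scale neurons had 198, 441, 21.6 and 71.9 CPM, and the change in oligodendrocytes differed from that in astrocytes by 0.00 ± 0.19 and from that in OPC by 0.03 ± 0.22 on the log2 scale (adjusted p = 1.00 and 0.997). The neuropeptide gene Cartpt fell from 33.6 and 41.7 to 0.89 and 11.9 CPM, Chchd10, a mitochondrial protein, from 55.0 and 63.3 to 6.14 and 14.2, and the small X-linked genes Bex2 and Bex1 by 2.51 ± 0.33 and 2.43 ± 0.40. In neurons Cartpt was at 24.4, 27.2, 1.79 and 24.6 unscaled CPM and Bex2 at 83.0, 58.3, 11.8 and 27.5, so that Cartpt in COL replicate 2 neurons was as high as in NS. With DESeq2, Cartpt was not called (adjusted p = 0.248, with a range from 3.1e-33 over the alternatives).

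Ribosomal protein and glycolysis genes also had lower summed levels in COL in all 5 types. Of 39 ribosomal protein genes 30 fell, against 10.6% of all genes, and none rose (median -1.25). The steepest were Rps27a, Rpl6, Rpl13 and Rpl37 at -1.65, -1.63, -1.60 and -1.58. The 39 genes summed to 2380 and 2478 unscaled CPM in NS oligodendrocytes against 578 and 1329 in COL, a log2 ratio of -1.35. The same ratio was -1.49 in astrocytes, -1.0 in OPC, -1.20 in neurons and -1.0 in microglia. COL replicate 1 was lowest in all 5 types. Of 24 glycolysis genes 9 fell, against 10.6% of all genes, and none rose. Those that fell included Gapdh, from 130.0 and 169 to 20.6 and 59.2 CPM, and Aldoc, Aldoa and Pgam1, by 1.80, 1.43 and 1.40. Aldoc fell more in oligodendrocytes than in astrocytes (log2 difference -1.26 ± 0.21, adjusted p = 8.1e-06, and up to 0.0639 over the alternatives). The log2 ratio of the summed glycolysis genes was -0.78 in oligodendrocytes and between -0.53 and -0.33 in the other 4 types. Tubb2a and Tuba1a, tubulins, fell by 2.09 and 1.54, and Tubb2b by 1.79. With DESeq2, Rps27a (adjusted p = 0.087), Rpl6 (0.0609), Gapdh (0.0586), Tuba1a (0.109) and Tubb2b (0.21) lost their calls, and Tubb2b did so on thinned nuclei too (-1.49, 0.0759). The lowest values of these 5 over the alternatives were 5.6e-18, 8.76e-17, 1.45e-22, 5.2e-16 and 5.15e-11. Of 11 astrocyte markers in the oligodendrocyte sums 5 fell, against 10.6% of all genes, 5 were not called and 1 rose, with Agt, Ntsr2 and Gja1 at -3.21, -2.14 and -1.62, and Gfap, the filament of reactive astrocytes, at 2.89. The 11 markers summed to 567 and 451 CPM in NS oligodendrocytes and 365 and 355 in COL. The part of RNA from other cells in these falls was not tested.

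**Figure D4:**
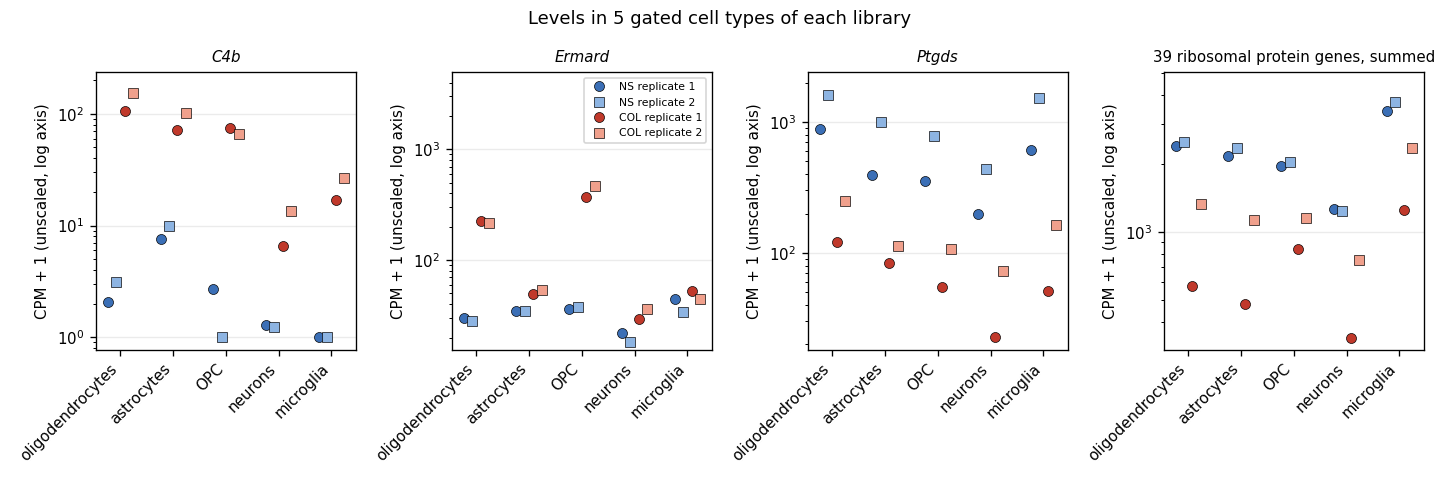
CPM + 1 (unscaled, log axis) of C4b, Ermard, Ptgds and the sum of 39 ribosomal protein genes in 5 gated cell types, 1 point per library. C4b is higher in COL in all 5 types and, within COL, highest in oligodendrocytes, while in NS it is highest in astrocytes, Ermard is high in COL oligodendrocytes and OPC, and Ptgds and the ribosomal genes are lower in COL in all 5 types.

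Iron and lipid handling showed individual rather than list-wide changes. Of 17 iron genes 4 rose and 1 fell, against 7.02% and 10.6% of all genes, and over the alternatives 3 to 6 rose and 0 to 6 fell. Slc39a14, a zinc and non-transferrin iron importer, had 15.3, 18.8, 92.7 and 81.6 CPM (log2 2.35 ± 0.18, adjusted p = 0.000652). Steap3, an endosomal ferrireductase, had 1.71, 1.14, 12.6 and 10.0 CPM. Hmox1, which degrades haem, had 1, 9, 182 and 296 UMIs (log2 5.57 ± 0.48). Its unscaled level in COL was 15 and 21.9 CPM in oligodendrocytes, 8.23 and 10.0 in neurons and 382 and 205 in microglia. Slc40a1, the iron exporter, rose by 2.23 on 3, 8, 16 and 36 UMIs, and Tfrc, the transferrin receptor, named after its values were seen, fell by 0.73. The store and carrier of iron most used by these cells, Fth1 and Trf, had 803, 992, 214 and 737 CPM and 348, 496, 382 and 740.0 CPM and were not called, with COL replicate 1 far below COL replicate 2 in both. Fth1 was called lower without NS replicate 1 (log2 -1.06, adjusted p = 0.0226) and COL replicate 2 (-2.11, 4.21e-05), and Trf higher without COL replicate 1 (0.81, 0.0154). Slc40a1 lost its call without NS replicate 1 (log2 1.84, adjusted p = 0.112) and COL replicate 2 (1.65, 0.131), and Tfrc without NS replicate 1 (-0.75, 0.0696) and NS replicate 2 (-0.69, 0.118), from lowest adjusted p of 0.00101 and 0.00153.

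Of 23 cholesterol synthesis genes 2 fell, against 10.6% of all genes, and none rose (median -0.31), with 1 to 8 lower over the alternatives. Fdps fell from 20.8 and 26.1 to 9.61 and 10.8 CPM, and Cyp51 fell by 0.65. Of 17 genes of lipid export and storage 3 rose, which were Plin2, the lipid droplet coat protein, from 0.72 and 0.92 to 6.5 and 11.7 CPM, Mylip, which degrades the LDL receptor, by 1.15, and Abca1, the cholesterol exporter, by 0.65. Over all genes 7.02% rose, and over the alternatives 2 to 6 of the 17 rose and 0 to 2 fell. Plin2 was at 204 and 216 unscaled CPM in COL microglia. Apoe had 317, 354, 93.6 and 303 CPM and was not called, and its low COL value came from replicate 1. Without NS replicate 1 (log2 -0.83, adjusted p = 0.0365) or COL replicate 2 (-1.89, 4.58e-05) it was called lower. Without NS replicate 2, Cyp51 (log2 -0.49), Mylip (1.04) and Abca1 (0.67) lost their calls at adjusted p of 0.273, 0.0645 and 0.105. Without NS replicate 1 Abca1 (0.64) had an adjusted p of 0.112 and without COL replicate 1 Cyp51 (-0.60) had 0.0505, from lowest values of 0.00329, 0.000197 and 0.00301 for Cyp51, Mylip and Abca1.

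Stress genes moved in both directions, and over all genes 7.02% rose and 10.6% fell. Among 14 heat shock genes, the inducible pair Hspa1b and Hspa1a rose by 2.87 ± 0.34 and 2.53 ± 0.43, whereas Hspe1, Hspa8, Cryab and Hsp90ab1 fell by 1.23, 1.19, 1.11 and 1.10. The pair are near-identical copies, so their counts may be split between them. Atf3, a stress-induced transcription factor, had 0, 1, 59 and 77 UMIs, and its unscaled level in COL was 4.87 and 5.69 CPM in oligodendrocytes, 6.99 and 5.58 in neurons and 37.6 and 43.9 in microglia. It was the only 1 of 19 genes of the unfolded protein and integrated stress response to rise, and Dnajb9, a chaperone of the endoplasmic reticulum, fell by 1.52 ± 0.28. With 1 of the 19 higher and 2 lower, this list was near the shares over all genes. Over the alternatives 1 to 4 of the 19 rose and 1 to 7 fell. Asns also fell, by 1.00, but was not called without any 1 of NS replicates 1 and 2 and COL replicate 1 (log2 -1.04, -0.96 and -0.80, adjusted p = 0.057, 0.116 and 0.0803, with a lowest value of 0.00221). Cdkn1a, the p21 cell cycle inhibitor, had 0.99, 1.28, 6.94 and 7.15 CPM. Of 13 immediate early genes tested 2 rose and 1 fell, with 1 to 4 and 1 to 3 over the alternatives. Fos rose from 2.43 and 2.41 to 7.83 and 6.71 CPM. The more abundant Jund was called lower, with 67.5, 56.0, 17.3 and 36.0 unscaled CPM and a log2 change of -1.73 to -0.74 over the alternatives.

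A formin and a channel rose at high levels. Fmnl2, a formin that elongates actin filaments, had 478, 580.3, 1503 and 1317 CPM (log2 1.41 ± 0.20, adjusted p = 0.00803), the only rise among 23 cytoskeletal genes. Piezo2, a mechanically gated channel, had 32.7, 43.1, 237 and 183 CPM (log2 2.47 ± 0.20, adjusted p = 0.000818), the only rise among 18 channel and transport genes, in which 2 fell, among them the sodium pump subunit Atp1b1, by 1.02. Of the cytoskeletal genes 3 fell. Both lists were near the shares over all genes, 7.02% higher and 10.6% lower. Over the alternatives 1 to 3 cytoskeletal genes rose and 2 to 7 fell, and 1 to 2 channel and transport genes rose and 2 to 5 fell. Of 24 growth factor genes 5 rose and 2 fell, against 7.02% and 10.6% of all genes, with 2 to 8 and 1 to 2 over the alternatives. Sgk1, a kinase downstream of insulin and glucocorticoid signals, rose from 36.4 and 45.6 to 96.8 and 79.1 CPM, and Fgfr3 fell by 1.51. Fgfr3 was low in oligodendrocytes, at 9.07, 7.91, 2.15 and 3.40 unscaled CPM, against 248, 192, 161 and 195 in gated astrocytes. The part of RNA from astrocytes in its fall was not tested.

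Whether these changes differed from those of other glia was tested with the interaction of cell type and group, with the library as a block. Gated astrocytes numbered 955 and 607 in NS and 112 and 137 in COL, and OPC 120, 134, 81 and 95. Against astrocytes, the change was more positive in oligodendrocytes for 207 of 18473 genes (1.12%) and more negative for 288 (1.56%). Against OPC it was more positive for 96 of 17179 genes (0.559%) and more negative for 82 (0.477%). In simulated data of the same size, with the same fixed spread for every gene, the test against OPC found 41% of 4-fold differences. Most differences of that size would therefore be missed. These counts changed with the libraries used. Against astrocytes they were 58 and 109 without NS replicate 1, 91 and 192 without NS replicate 2, 126 and 122 without COL replicate 1 and 208 and 201 without COL replicate 2. Against OPC they were 55 and 16, 23 and 16, 54 and 59, and 85 and 63 in the same order.

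Of the 12 leading genes the difference from astrocytes was called for 6. The choice of the 12, by their rise in oligodendrocytes and a COL level at least that of all other nuclei, favours such a difference. Ermard rose more in oligodendrocytes than in astrocytes (log2 difference 2.43 ± 0.22, adjusted p = 1.45e-15). Its unscaled CPM in astrocytes were 33.8, 34.0, 48.5 and 52.6. It was also called for Col23a1 (2.80 ± 0.27), C4b (2.90 ± 0.36), Pros1 (2.21 ± 0.26), Parp3 (2.19 ± 0.30) and Rhoj (2.00 ± 0.20), and, outside the 12, for Slc39a14 (1.72 ± 0.21) and Steap3 (2.53 ± 0.44). C4b rose in astrocytes too, from 6.59 and 8.97 to 69.9 and 101 CPM, and its difference kept the call in 10 of 12 alternatives, with adjusted p from 2.9e-12 to 0.0988. The other 6 leading genes were not called against astrocytes. The difference was 1.06 ± 0.44 for Serpina3n (adjusted p = 0.269), 2.77 ± 1.05 for 2310002F09Rik (0.181), 1.62 ± 0.63 for Aldh1l2 (0.202), -1.26 ± 1.37 for Cela1 (0.819) and -3.67 ± 2.31 for Bcl3 (0.591). Bcl3 was at 0 in both NS astrocyte libraries and Itprid1 (adjusted p = 1.00) in all 4, so that the fitted size is no bound for Bcl3 and is not given for Itprid1. Against OPC, neither C4b (0.01 ± 0.79, adjusted p = 1.00) nor Ermard (-0.55 ± 0.27, adjusted p = 0.59) was called, with an Ermard level of 35.4 and 36.4 CPM in NS and 369 and 467 in COL OPC. C4b was at only 1.69 and 0 CPM in NS OPC, so its difference is poorly bounded. Called against OPC were Pros1 (1.59 ± 0.42), Rhoj (1.23 ± 0.26), Aldh1l2 (1.57 ± 0.32), Steap3 (4.89 ± 0.62) and Fgf1 (1.92 ± 0.27). Fgf1, a fibroblast growth factor, was at 87.3, 96.7, 139 and 129 unscaled CPM in oligodendrocytes and 87.7, 116, 35.4 and 42.2 in OPC. Pros1 kept the call against OPC in 5 of 11 alternatives and lost it, among others, without NS replicate 2 and without COL replicate 1 (adjusted p from 0.0166 to 1.00), and its direction reversed, to -5.58, under the gate of at least 40 per 10000. Rhoj kept it in 7 of 12 alternatives and lost it, among others, without NS replicate 2 and without COL replicate 1. Aldh1l2 kept it in 8 of 11 and lost it under the gate of at least 40 per 10000, without NS replicate 1 and without NS replicate 2. The adjusted p went up to 1.00 for both Rhoj and Aldh1l2, from 2.15e-07 and 0.000147.

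Detection per nucleus was described at 1 depth. All members were brought to a common depth of 2000 UMIs by random thinning, and 155, 417, 3 and 3 shallower ones were set aside. At least 1 of the 12 leading genes was then found in 20.4% and 18.8% of NS members and in 59.2% and 63.7% of COL members. The 12 genes were chosen for their rise and for a COL level in oligodendrocytes at least that of all other nuclei, so higher shares than in NS or in neurons follow from the choice, and the shares are a description that does not show whether all nuclei or only some changed. At least 3 were found in 0% (0 of 2173, which allows up to 0.138%) and 0.0295% of NS members and in 21.4% and 21.9% of COL members. Neurons, which in NS 1 showed some of these genes more often than oligodendrocytes did (Col23a1 in 2.49% against 1.10%), had at least 1 in 13.5%, 11.3%, 18.8% and 27.9% and at least 3 in 0.0637%, 0% (up to 0.342% allowed), 0.0708% and 0.589%. C4b was found in 0.230%, 0.472%, 17.2% and 23.5% of members, against 1.49% and 3.54% of COL neurons. Stat3 was found in 9.66%, 9.65%, 26.9% and 22.9% of members. It was also found in 8.29%, 6.95%, 15.1% and 14.2% of neurons and in 30.1%, 27.1%, 38.2% and 34.9% of microglia. Opalin was found in 49.7%, 42.4%, 28.4% and 28.3% of members. Its share was 3.76% and 4.78% in NS neurons and at most 2.61% in COL neurons.

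**Figure D5:**
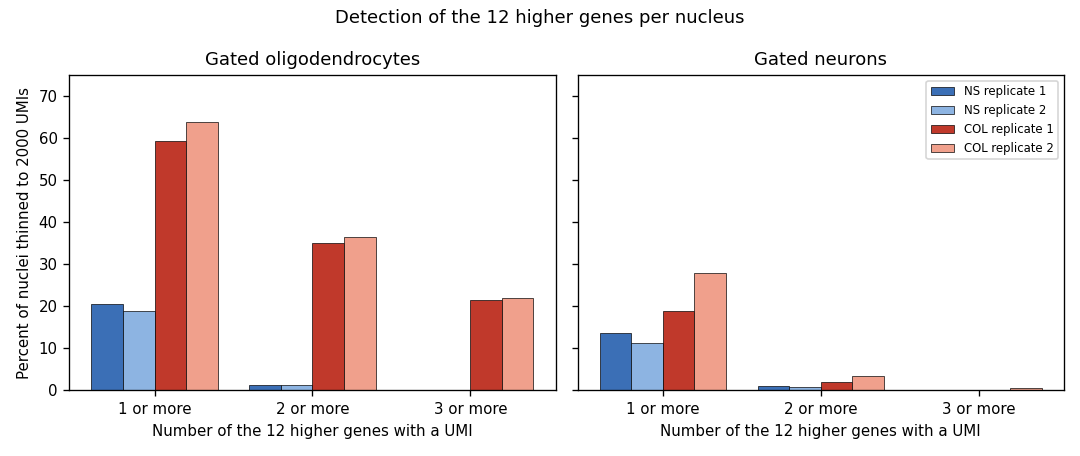
Percent of nuclei, thinned to 2000 UMIs, with a UMI of at least 1, 2 or 3 of the 12 leading genes, for gated oligodendrocytes (left) and gated neurons (right) of each library. For at least 3 genes both COL oligodendrocyte libraries lie above 20% and every other library below 1%, a direction that the choice of the 12 genes fixed.

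Detection of 3 pairs of genes, picked after their values were seen, was compared within libraries. In COL 1 and COL 2, Rhoj was detected in 69.4% and 58.0% of the members with a Bcl3 UMI, against 24.8% and 20.6% of the rest. With an Ermard UMI the share was 49.2% and 43.7%, against 19.9% and 17.3%. In NS 1 and NS 2 it was 5.34% and 8.60%, against 8.42% and 7.87%. Serpina3n was detected in 13.6% and 26.3% of the members with a C4b UMI, against 10.3% and 17.3% of the rest. These shares describe nuclei of 2 libraries at 1 fixed depth and carry no test.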

How the data were processed

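For the 4 libraries (2 NS, 2 COL), the deposited values are raw UMI counts of genes by barcodes. Per the labels and methods, nuclei were run on 10x Chromium (v2), and Cell Ranger 1.2.0 counted reads against mm10. Positions are from GENCODE (GRCm38). Members and gene lists were chosen with earlier results of these data known. No doublet caller or free RNA removal was applied beyond the gate.

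Counts were summed per library over the members and tested in edgeR 4.0.16 (R 4.3.3, limma 3.58.1) with TMM, filterByExpr, the quasi-likelihood F test and Benjamini-Hochberg adjustment over all genes. The SE is the log2 fold change divided by the root of F. Levels beside this test are TMM-scaled CPM (factors 0.929 to 1.08), and levels across cell types are unscaled CPM. DESeq2 1.42.0 was an alternative. The 16 gate genes were counted apart. Named were the 12 largest called rises and falls (not overlapping, mean CPM of at least 20, and at least the level of all other nuclei in the higher group), up to 4 called and 2 uncalled members per list, and 5 interaction genes per direction under the same level conditions. Results for some genes are not reported here. In simulated counts of 18209 genes, edgeR found 53% of 2-fold and 95% of 4-fold changes, with 3 false calls. The simulation gave every gene the same spread between replicates, below the common value fitted to the data. It changed no gene of few UMIs, so the shares found may be too high for these data. Replicates were not repeats of 1 library, with a chi-square per degree of freedom of 11.7 between the NS and 18.9 between the COL libraries.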

Additional observations from a re-analysis of the deposited data

Results flagged for a closer look

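The COL to NS change of these genes differed between oligodendrocytes and another glial type in the interaction test, each value being the log2 change in oligodendrocytes minus that in the other type. The genes were picked as the largest called differences, under the level conditions given above, so their sizes follow in part from the choice. Against astrocytes the difference was positive for C4b (2.90, adjusted p = 7.45e-10), Col23a1 (2.80, 3.61e-15), 9030025P20Rik (2.73, 7e-07), Ermard (2.43, 1.45e-15) and Gpd1 (2.26, 2.11e-08). Gpd1, glycerol-3-phosphate dehydrogenase, was at 15.3, 14.8, 67.0 and 92.2 unscaled CPM in oligodendrocytes and at 11.9, 25.5, 15.7 and 23.1 in astrocytes. The difference was negative for Abca6 (-3.83, 0.0227), 9130019P16Rik (-3.17, 0.0174), Fbn2 (-3.08, 4.6e-09), Enpp1 (-2.46, 0.0163) and Dapk2 (-2.36, 0.000218). In astrocytes Abca6 was at 0.53, 0.47, 2.85 and 3.16 unscaled CPM and 9130019P16Rik at 1.32, 1.42, 2.85 and 4.21. Enpp1 was at 1.58, 2.36, 9.99 and 4.21 there, so few astrocyte UMIs lay behind the differences of these genes. Col23a1, Ermard and Gpd1 kept their calls in all 12 alternatives, C4b in 10 of 12 and Fbn2 in 11 of 12. Abca6 kept it in 3 of 11 and 9130019P16Rik in 4 of 11, and both lost it without any 1 library (adjusted p up to 0.613 and 1.00, from 0.0212 and 0.0154). Enpp1 kept it in 5 of 11 and Dapk2 in 8 of 12. Fbn2, fibrillin 2, was at 99.9, 81.2, 57.9 and 54.9 CPM in oligodendrocytes and at 3.43, 4.72, 17.1 and 23.1 in astrocytes.

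Against OPC the difference was positive for Gm16124 (3.88, adjusted p = 0.0199), Gm21984 (3.00, 0.0184), Col27a1 (2.10, 1.36e-07), Fgf1 (1.92, 1.24e-08) and Gm2164 (1.68, 2.12e-13). It was negative for C630043F03Rik (-9.16, 0.0347), Gm36988 (-2.28, 0.0245), 9330111N05Rik (-2.22, 0.00848) and Neat1 (-1.72, 2.85e-07). Gm16124 kept its call in 3 of 11 alternatives and C630043F03Rik and Gm36988 in 2 of 11, and all 3 lost it without any 1 library. Gm21984 kept it in 5 of 11 and 9330111N05Rik in 5 of 12, against 9 to 11 for Col27a1, Fgf1, Gm2164 and Neat1. C630043F03Rik had 0 UMIs in both NS libraries of OPC, so its fitted value depends on the prior count. Neat1, a nuclear long noncoding RNA, was at 1070, 1098, 1620.0 and 2012 CPM in oligodendrocytes and at 27.0, 45.1, 192 and 205 in OPC, so it was higher in COL in both types.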

How the results depend on the processing

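The tests were recomputed under 12 alternatives (10 or 11 for some genes of few UMIs) and the share of nuclei under 7. Promoter and detection shares have no alternatives. For the 139 genes followed, 1540 of 1657 recomputed values kept their direction and side of the threshold, 87 lost and 29 gained a call and 1 reversed. Of 1309 higher and 1981 lower genes in the report's test, 2183 and 3167 were called with no filter on low counts. Same-numbered replicates had correlated deviations (r = 0.193 over 12938 genes), but with only 2 pairs and no shared animal a pairing was not established. With the replicate block the counts were 2212 and 3485, and it ended no call of the followed genes and added 7, those of Apoe, Fth1, Apod, Klk6, Scd2, Mrc1 and Enpp1. Leaving out 1 library gave 780 to 2332 higher and 1319 to 3614 lower genes. For the interaction against astrocytes (207 more positive and 288 more negative), DESeq2 gave 36 and 116, the gate of at least 40 per 10000 86 and 33, equal numbers of nuclei 50 and 145, and leaving out 1 library 58 to 208 and 109 to 201. The more negative count was 71 on thinned nuclei and 118 with other sums under 5. Against OPC (96 and 82), DESeq2 gave 18 and 13, thinned nuclei 183 and 22, the higher gate 2 and 0, and leaving out 1 library 23 to 85 and 16 to 63. The more negative count was 48 with no filter, 30 with other sums under 5 and 36 with equal numbers of nuclei. The difference in share was -7.38 to 5.17 percentage points without 1 library. Without 1 library the log2 change of Trf ran from -0.19, without COL replicate 2, to 0.81. Against OPC under the higher gate, 9330111N05Rik reversed to 0.53 and Pros1, called in the report's test, to -5.58. With DESeq2, 13 calls were lost, those of Cartpt, Gapdh, Rps27a, Rpl6, Tuba1a, Tubb2b, Asns, Slc40a1, Lims2, Nkx2-9, Fosl2, Gdnf and Met. The cause was not tested. With 2 pools a group, small changes and genes of few UMIs limit what could be called.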
